A study of Homo sapiens with 12 samples.

Results

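The genes described here are caspases, BCL2 family genes and members of the TNF receptor and TNF ligand families with their TRAF adaptors. They were chosen by symbol alone: symbols beginning with CASP and a digit, BCL2, BIRC, TNFRSF, TNFSF or TRAF and a digit, and BAX, BAK1, BID, BAD, BIK, MCL1, APAF1, CFLAR and FADD, with BIRC5 and TNFRSF10C left out. The rule found 35 genes, measured by 37 probes, among 5499 genes on the arrays. They comprise 6 initiator caspases and their platforms, 3 inflammatory caspases, 5 BCL2 family genes, 8 TNF receptors, 8 TNF ligands and 5 TRAF or TRAF-interacting genes. No effector caspase, no BIRC gene and none of BAX, BAK1, BID, BAD, MCL1 and FADD was among them.

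RNA came from H460, an established human lung cancer cell line. Cells were exposed for 24 h to 1 µM 5-fluorouracil (5-FU), 0.2 µM cytarabine, 5 µM cisplatin, 5 nM paclitaxel or 0.2 µM cytochalasin D, and untreated H460 cells were the control on every array. Each of the 12 two-channel arrays held RNA of treated cells in one channel and of untreated cells in the other. 5-FU had 4 arrays, made of 2 numbered replicates, each hybridised forward (treated RNA in channel 2) and reversed (treated RNA in channel 1), and the other drugs had 2 arrays each with treated RNA in channel 1. 5-FU and cytarabine are pyrimidine analogs that disturb DNA synthesis, cisplatin cross-links DNA, paclitaxel stabilises microtubules and cytochalasin D blocks actin polymerisation. Each drug was used at 1 dose, and doses differed between drugs, so a difference between drugs is one between these treatments as given.

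Programmed cell death can begin at the cell surface or at mitochondria. TNF ligands bind TNF receptors; receptors with a death domain recruit FADD and the initiator caspases CASP8 and CASP10, while others bind TRAF adaptors and activate NF-kB. At mitochondria the BCL2 family sets whether cytochrome c is released, after which APAF1 assembles the platform that activates CASP9. p53, which DNA damage stabilises, induces genes of both routes in many cell types.

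The values were log ratios of the channels per probe, and their base, taken here as log2, and their numerator were not stated. One sign for all arrays was chosen so that MDM2, a p53 target outside the set, averaged above 0 on the 5-FU and cisplatin arrays, so the direction treated over untreated is likely but not stated. MDM2 then read 1.15 to 1.80 on the 4 arrays of 5-FU and 2.57 and 2.74 on the cisplatin arrays, and CDKN1A read 2.41 and 2.57 on the 2 reversed 5-FU arrays and 3.12 and 4.20 on the cisplatin arrays. A ratio says nothing of a gene's level, so the labelled cell type could not be checked against markers. In bulk RNA, a change in the make-up of a culture and a change in RNA per cell cannot be told apart.

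Missing values limited the set. Of the 35 genes, 12 had a value on all 12 arrays, 10 had none on any 5-FU array, and 25 had values on all 8 arrays of the other 4 drugs. On the 5-FU arrays 28.6 to 54.3% of the set was missing, against 21.5 to 46.7% of all probes; on the other arrays 8.57 to 28.6% of the set was missing, against 6.44 to 14.5% of all probes. A linear model with a ratio per drug and a channel effect, the latter learned from the forward and reversed 5-FU arrays, could test 21 genes against untreated RNA for at least 1 drug and 14 genes for none. Values are log2 ratios of treated over untreated RNA, and a fitted value is given with its standard error (SE). The SE rests on 1 spread per gene, shared by the 5 drugs and moderated over all features. It is not the spread of that drug's 2 replicates alone. The word "called" means a Benjamini-Hochberg adjusted p under 0.05 over all features tested in that comparison. The labels do not say whether replicates were separate cultures, so p-values measure the spread between these arrays, which may be technical.

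**Figure D1:**
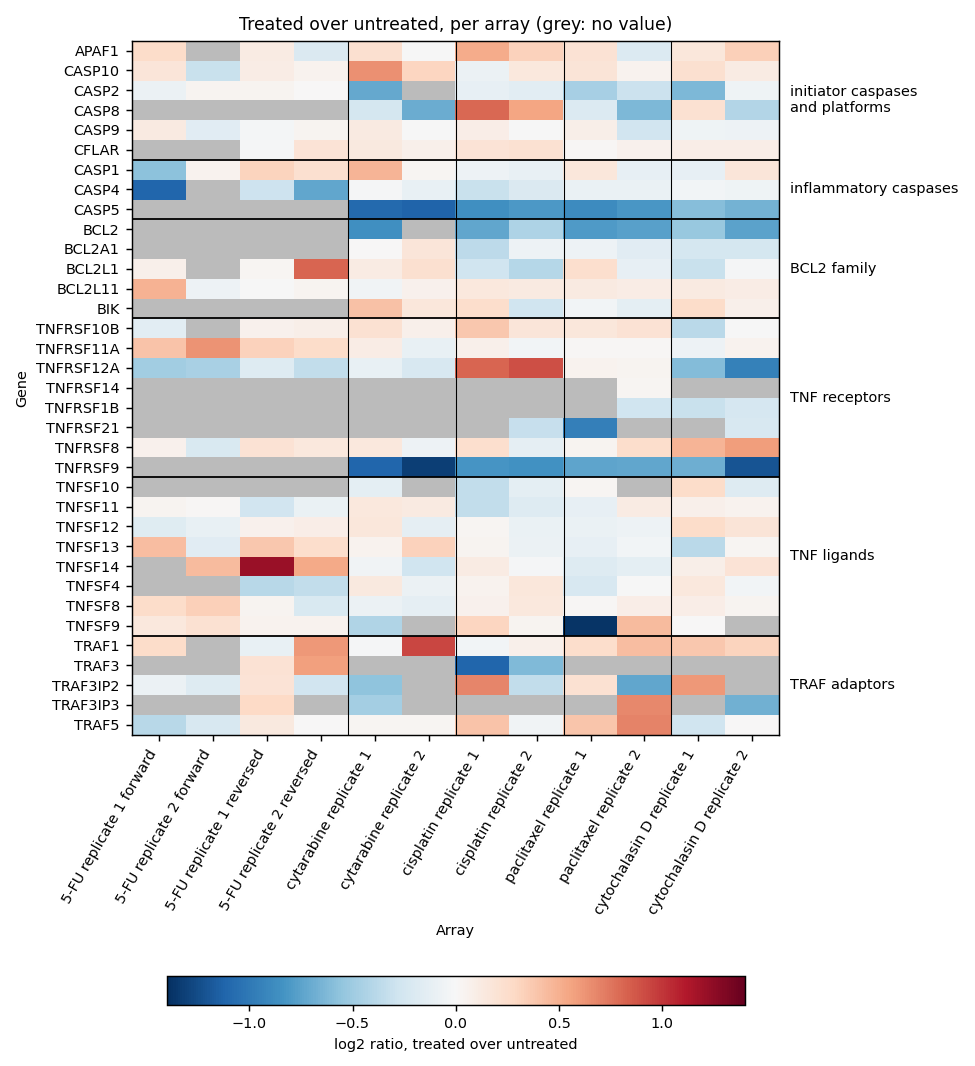
Each row is 1 of the 35 genes, grouped by role, each column 1 of the 12 arrays, and the colour is the log2 ratio of treated over untreated RNA, with grey for no value. TNFRSF12A is red on both cisplatin arrays and blue on the 5-FU and cytochalasin D arrays, while CASP5, BCL2 and TNFRSF9 are blue on each array of the other 4 drugs that gave a value and grey on the 5-FU arrays.

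Few of these genes moved. 5-FU changed 4 of the 21 genes tested: TNFSF14 and TNFRSF11A rose, and CASP4 and TNFRSF12A fell. Cisplatin raised TNFRSF12A and lowered CASP4 among 21 tested, and cytochalasin D lowered TNFRSF12A among 19 tested. The share called was 19% for 5-FU, where 17.1% of all 5028 features tested were called; 9.52% for cisplatin, where 13% of 4943 features were; and 5.26% for cytochalasin D, where 7.97% of 4893 features were. The model called none of the 18 genes tested for cytarabine, with 4 at an unadjusted p under 0.05, while 18.9% of 4735 features were called. It called none of the 21 tested for paclitaxel, again with 4 at an unadjusted p under 0.05, while 5.32% of 4852 features were called.

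How the sizes in the set compared with those in all features varied by drug. The median absolute log2 ratio was 0.106 over the set and 0.107 over all features tested for 5-FU, 0.107 and 0.174 for cytarabine, and 0.151 and 0.165 for cisplatin. It was 0.191 over the set and 0.137 over all features for paclitaxel, and 0.263 and 0.143 for cytochalasin D. Without the channel term these medians were 0.110 and 0.117 for 5-FU, 0.139 and 0.159 for cytarabine, and 0.171 and 0.132 for cisplatin. They were 0.111 and 0.113 for paclitaxel, and 0.165 and 0.116 for cytochalasin D. The fit without the channel term tests more genes and called more of them. It called 5 of 24 genes for 5-FU (20.8%, background 19.1% of all features) and 3 of 25 for cytarabine (12%, background 25.9%). It called 6 of 31 for cisplatin (19.4%, background 15.8%), 4 of 29 for paclitaxel (13.8%, background 9.58%) and 5 of 29 for cytochalasin D (17.2%, background 11%). The set's share was above the background for 4 of the 5 drugs in this fit, and for 1 of the 5 with the channel term. The genes called without that term included CASP5 and TNFRSF9 for each drug other than 5-FU. They also included BCL2 for cisplatin, paclitaxel and cytochalasin D. These genes had no 5-FU values, so for them drug and channel effect cannot be told apart.

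**Figure D2:**
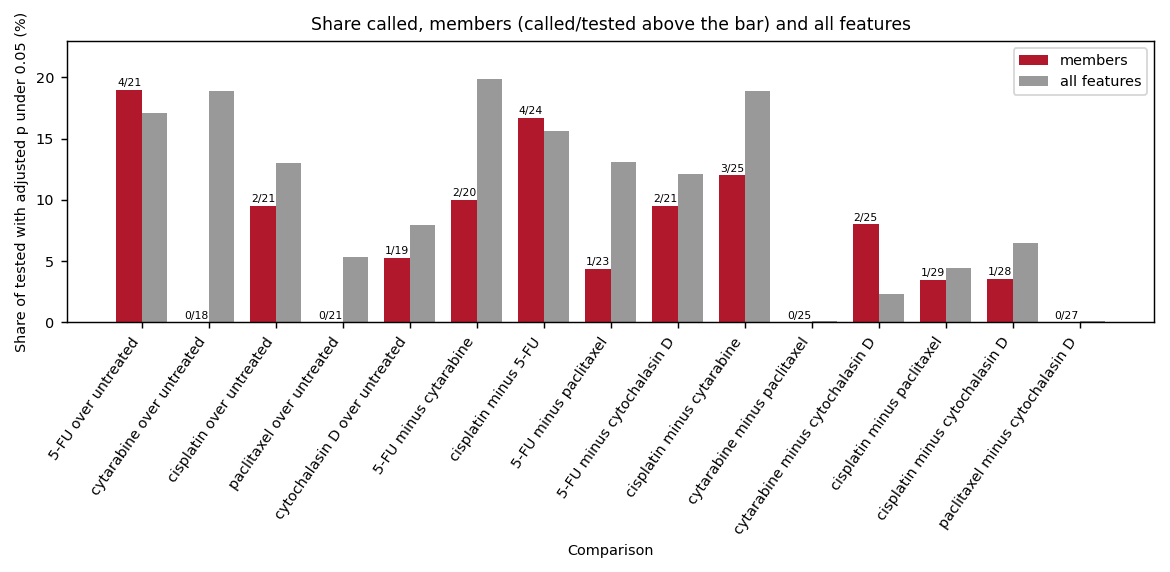
Bars give the percentage of tested genes (y axis, %) with an adjusted p under 0.05 in each of the 15 comparisons (x axis), red for the set and grey for all features, with called over tested genes of the set above each red bar. The red bar is taller than the grey bar in 3 comparisons: 5-FU over untreated, cisplatin minus 5-FU and cytarabine minus cytochalasin D.

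TNFRSF12A gave the clearest response of the set. It encodes Fn14, the receptor of the ligand TWEAK (TNFSF12), which has no death domain and signals through TRAF proteins. Its log2 ratio was -0.49 and -0.45 on the forward 5-FU arrays and -0.18 and -0.35 on the reversed ones. It was -0.10 and -0.23 on the cytarabine arrays, 0.82 and 0.91 on the cisplatin arrays, 0.05 and 0.04 on the paclitaxel arrays, and -0.61 and -0.95 on the cytochalasin D arrays. Cisplatin was the one drug with both arrays well above 0, and the cytochalasin D arrays were lower than all others. The fitted log2 ratio rose by 0.76 ± 0.10 for cisplatin (1.69-fold, adjusted p = 0.00258) and was -0.88 ± 0.10 for cytochalasin D (1.84-fold lower, adjusted p = 0.00249). For 5-FU it was -0.37 ± 0.08 (1.29-fold lower, adjusted p = 0.0169), a call that ended when either 5-FU replicate was left out (adjusted p = 0.101 and 0.167) and when arrays were scaled to the same spread (adjusted p = 0.0679). The ratios for cytarabine (-0.27 ± 0.10, adjusted p = 0.106) and paclitaxel (-0.06 ± 0.10, adjusted p = 0.777) were not called.

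**Figure D3:**
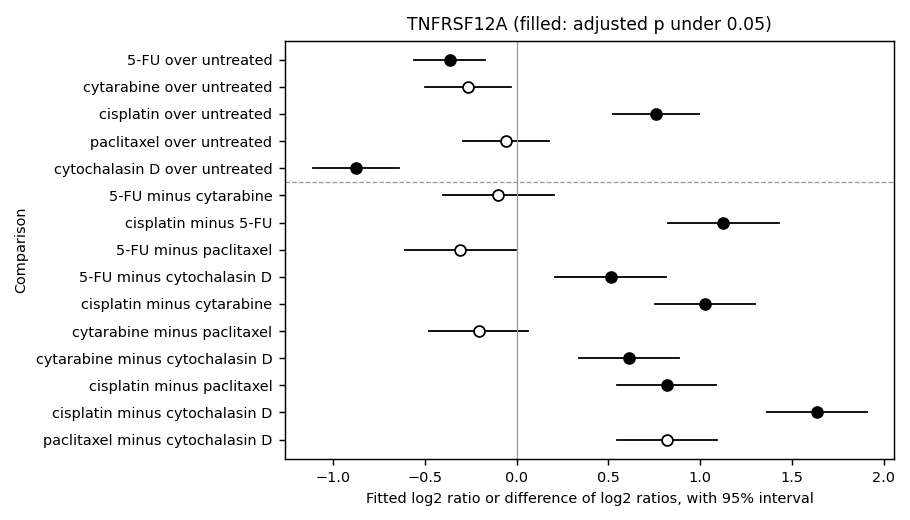
The x axis gives the fitted log2 ratio of TNFRSF12A for each drug (above the dashed line) and the difference between log2 ratios for each pair of drugs (below it), with bars for the 95% confidence interval and filled points for an adjusted p under 0.05. All 4 differences of cisplatin from another drug are filled and lie between 0.82 and 1.64.

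Comparing the drugs with each other, TNFRSF12A was higher after cisplatin than after each of the other 4. The difference in log2 ratio was 1.64 ± 0.12 for cisplatin minus cytochalasin D (3.11-fold, 95% confidence interval 1.37 to 1.91, adjusted p = 0.000272). It was 1.13 ± 0.13 for cisplatin minus 5-FU (adjusted p = 0.000957), 1.03 ± 0.12 for cisplatin minus cytarabine (adjusted p = 0.00178) and 0.82 for cisplatin minus paclitaxel (adjusted p = 0.00756). The last of these calls ended without cisplatin replicate 2 (adjusted p = 0.0565) or paclitaxel replicate 1 (adjusted p = 0.0521). At the low end, TNFRSF12A was lower after cytochalasin D than after 5-FU (5-FU minus cytochalasin D 0.51, adjusted p = 0.0395) and than after cytarabine (cytarabine minus cytochalasin D 0.61, adjusted p = 0.0444), while paclitaxel minus cytochalasin D, 0.82 with a 95% confidence interval of 0.55 to 1.09, had an adjusted p of 0.0558. Both of these calls ended when single replicates were left out, and without the channel term (0.41, adjusted p = 0.0634, for 5-FU minus cytochalasin D and an adjusted p of 0.0522 for cytarabine minus cytochalasin D). Neighbours in the middle of the order were not told apart: 5-FU minus cytarabine was -0.10 (95% confidence interval -0.40 to 0.20, adjusted p = 0.644) and cytarabine minus paclitaxel -0.21 (-0.48 to 0.06, adjusted p = 0.454).

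A moderated F test of whether cytarabine, cisplatin, paclitaxel and cytochalasin D gave equal ratios bears on the same point, since these 4 drugs carry treated RNA in the same channel. TNFRSF12A was the one gene of the 25 tested that it called (adjusted p = 0.000945), which is 4% of the set, while 10.2% of all 6519 features tested were called. Its ligand TNFSF12, measured by 2 probes, had fitted log2 ratios from -0.19 to 0.11 over the 5 drugs and was called in none.

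Among the remaining receptors, TNFRSF11A (RANK, the receptor of TNFSF11) rose after 5-FU. The arrays gave log2 ratios of 0.40 and 0.63 on the forward and 0.33 and 0.26 on the reversed 5-FU arrays, and between -0.11 and 0.11 on the 8 arrays of the other drugs. The 5-FU arrays thus lay above all others without overlap. The fitted log2 ratio for 5-FU was 0.40 ± 0.08 (1.32-fold, adjusted p = 0.00613), and 0.37 with an adjusted p of 0.0651 without 5-FU replicate 2. The difference of 5-FU from each other drug lay between 0.28 and 0.30 and was called in no pair with the channel term (adjusted p from 0.126 to 0.191). Without that term each of the 4 differences was called. 5-FU minus cytarabine was then 0.40 (adjusted p = 0.0232), 5-FU minus paclitaxel 0.39 (adjusted p = 0.0384), 5-FU minus cytochalasin D 0.42 (adjusted p = 0.0311) and cisplatin minus 5-FU -0.39 (adjusted p = 0.0354). Whether the TNFRSF11A response differs between 5-FU and the other drugs therefore depends on the channel term.

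TNFRSF10B (DR5), a death receptor for TRAIL that p53 induces in many cells, was not called for any drug. It read 0.38 and 0.17 on the cisplatin arrays, from -0.15 to 0.08 on the 3 arrays of 5-FU with a value, and -0.38 and 0.00 on the cytochalasin D arrays; cisplatin gave a fitted 0.17 ± 0.13 (adjusted p = 0.426). TRAIL itself, TNFSF10, had no value on the 5-FU arrays and lay between -0.35 and 0.26 on the other 6 arrays that measured it. TNFRSF8 (CD30) read 0.48 and 0.59 on the cytochalasin D arrays and -0.21 to 0.24 elsewhere. Its fitted 0.41 ± 0.12 for cytochalasin D missed the threshold (adjusted p = 0.0825), and passed without the channel term (adjusted p = 0.0176). TNFRSF14, TNFRSF1B and TNFRSF21 had values on 1, 3 and 3 arrays and were not tested.

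TNFRSF9 (4-1BB), a costimulatory receptor of lymphocytes, was low on every array that measured it, with no value for 5-FU. Its log2 ratio was -1.11 and -1.32 on the cytarabine arrays, -0.82 and -0.85 on the cisplatin arrays, -0.74 and -0.73 on the paclitaxel arrays, and -0.68 and -1.21 on the cytochalasin D arrays. All 8 ratios were below 0. The cytarabine arrays lay below those of cisplatin and these below those of paclitaxel, and the 2 cytochalasin D arrays spanned this range in part. The F test among the 4 drugs did not call TNFRSF9 (adjusted p = 0.269), and it was called in no pair of them. These 8 arrays share 1 channel layout, so for TNFRSF9 a response common to the 4 drugs and a channel effect cannot be told apart. A fit without the channel term gave -1.22 for cytarabine (adjusted p = 0.000813), -0.84 for cisplatin (adjusted p = 0.00594), -0.73 for paclitaxel (adjusted p = 0.0139) and -0.95 for cytochalasin D (adjusted p = 0.00478). Of the 10 fits that left out a replicate, only the 2 without a replicate of the drug itself change its ratio. The cisplatin call (-0.85 and -0.82) and the paclitaxel call (-0.74 and -0.73) were lost in both of these. Its ligand TNFSF9 varied between replicates of 1 drug, with -1.37 and 0.44 on the paclitaxel arrays, and was called in no drug.

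Of the 6 TNF ligands tested for 5-FU, 1 rose and none fell. TNFSF14 (LIGHT), the ligand of TNFRSF14 and of the lymphotoxin beta receptor, read 0.44 on the forward 5-FU array that measured it and 1.21 and 0.53 on the reversed ones. It read -0.05 and -0.28 on the cytarabine arrays, 0.12 and -0.01 on the cisplatin arrays, -0.18 and -0.13 on the paclitaxel arrays, and 0.08 and 0.20 on the cytochalasin D arrays. All 3 ratios for 5-FU were above those of the other drugs. The fitted log2 ratio for 5-FU was 0.76 ± 0.14 (1.69-fold, adjusted p = 0.00914), and 0.49 without 5-FU replicate 1, which carries the largest ratio (adjusted p at most 0.0307 in the 9 fits without a replicate that could be estimated).

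TNFSF14 also differed between drugs. 5-FU minus cytarabine was 1.10 ± 0.20 (adjusted p = 0.00713), 5-FU minus paclitaxel 1.09 (adjusted p = 0.0102), 5-FU minus cytochalasin D 0.80 (adjusted p = 0.0373) and cisplatin minus 5-FU -0.88 (adjusted p = 0.0218). Without 5-FU replicate 1 these 4 differences were 0.69, 0.68, 0.39 and -0.48. The first kept its call with every replicate left out in turn (adjusted p at most 0.0436), and the other 3 lost theirs in at least 1 case. Without the channel term the TNFSF14 call for 5-FU minus cytochalasin D ended (0.71, adjusted p = 0.0697), and the other 3 held.

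The other ligands moved little. TNFSF11 (RANKL) was lower after cisplatin (-0.34 and -0.18) than after cytarabine (0.15 and 0.13), a difference of -0.40 ± 0.10 (adjusted p = 0.0312), and was called against untreated RNA in no drug. TNFSF4 (OX40L) read 0.04 and 0.16 on the cisplatin arrays and -0.39 and -0.35 on the 2 reversed 5-FU arrays, its only 5-FU values, a difference of 0.47 ± 0.12 for cisplatin minus 5-FU (adjusted p = 0.0378). Without the channel term TNFSF4 was called for 5-FU against untreated RNA (-0.37, adjusted p = 0.0203). Each of these 2 differences between drugs lost its call in 6 of 10 fits that left out a replicate, among them every fit without a replicate of either drug compared. TNFSF8 (CD30 ligand) had a fitted 0.29 ± 0.08 for cisplatin (adjusted p = 0.0521), and TNFSF13 (APRIL) lay between -0.26 and 0.22 in the fit.

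**Figure D4:**
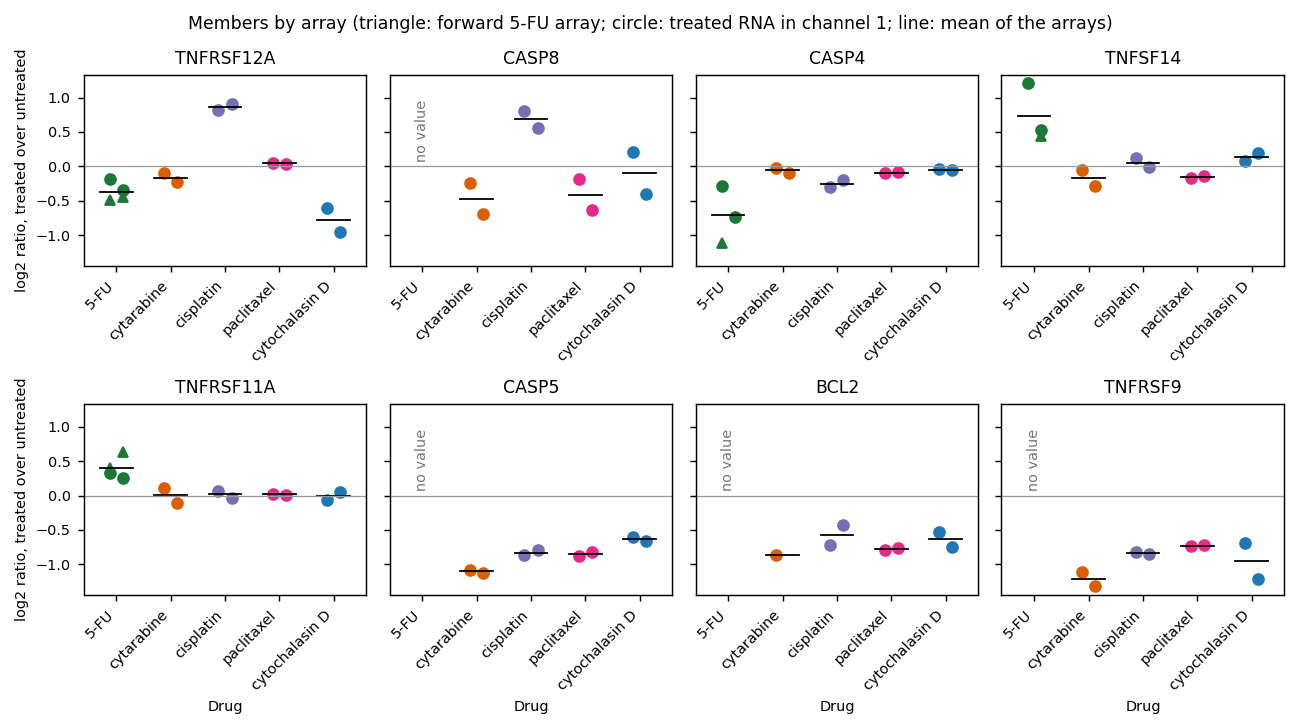
Each panel shows 1 gene, with the log2 ratio of treated over untreated RNA on the y axis and the drug on the x axis; each point is an array (triangles for forward 5-FU arrays, circles for treated RNA in channel 1) and the line is the mean of the arrays. TNFRSF12A separates cisplatin from the other drugs, TNFSF14 and TNFRSF11A stand apart on the 5-FU arrays, CASP4 reaches its lowest values there with an overlap with cisplatin, and CASP5, BCL2 and TNFRSF9 are below 0 on every array with a value.

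Among the caspases the results turn on CASP4, CASP5 and CASP8. CASP4 and CASP5 are closely related inflammatory caspases that sense cytosolic lipopolysaccharide, and CASP8 is the initiator caspase of death receptors. Their promoters, from RefSeq on GRCh38.p14 (250 bases before to 50 after the start, where 28 genes of the set had an entry), are shown so that the 2 related genes can be set beside the initiator. CASP4 lies on chromosome 11 (chr11:104968525-104968824, minus strand), CASP5 on the same chromosome (chr11:105023119-105023418, minus strand) and CASP8 on chromosome 2 (chr2:201233213-201233512, plus strand, the first listed start). Capitals mark the GC box (GGGCGG on either strand).
CASP4: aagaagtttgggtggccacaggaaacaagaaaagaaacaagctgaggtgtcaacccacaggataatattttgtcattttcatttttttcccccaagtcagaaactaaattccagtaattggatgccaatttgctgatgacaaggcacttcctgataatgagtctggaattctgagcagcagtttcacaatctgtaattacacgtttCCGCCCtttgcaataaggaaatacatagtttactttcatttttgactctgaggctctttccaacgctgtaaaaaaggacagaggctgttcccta
CASP5: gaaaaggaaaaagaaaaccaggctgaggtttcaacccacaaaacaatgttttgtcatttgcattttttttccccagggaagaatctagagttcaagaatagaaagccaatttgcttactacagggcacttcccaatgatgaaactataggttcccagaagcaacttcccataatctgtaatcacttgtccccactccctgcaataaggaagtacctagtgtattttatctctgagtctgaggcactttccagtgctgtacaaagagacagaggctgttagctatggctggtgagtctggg
CASP8: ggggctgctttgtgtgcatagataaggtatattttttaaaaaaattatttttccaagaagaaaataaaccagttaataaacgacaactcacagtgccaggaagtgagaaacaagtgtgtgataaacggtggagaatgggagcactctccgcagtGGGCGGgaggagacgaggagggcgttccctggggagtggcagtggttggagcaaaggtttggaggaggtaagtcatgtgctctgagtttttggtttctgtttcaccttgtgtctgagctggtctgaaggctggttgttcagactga
CASP4 and CASP5 shared 219 of 321 aligned columns (68.2%), and CASP4 and CASP8 shared 167 of 329 (50.8%). CASP4 and CASP8 each held 1 GC box, beginning at positions -44 and -96 from the start, and these letters are not in the CASP5 window. A GC box was found in 17 of the 28 promoters of the set and in 45% of all 35116 promoters. The p53 half-site, searched by its consensus on both strands, was in none of the 28 and in 6.63% of all promoters; the AP-1 motif TGANTCA, also searched on both strands, was in 4 of the 28, including those of TNFRSF9 and TNFSF14, and in 7.71% of all.

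CASP4 fell after 5-FU. Its log2 ratio was -1.11 on the forward 5-FU array that measured it and -0.29 and -0.73 on the reversed ones, against -0.31 and -0.20 on the cisplatin arrays and between -0.10 and -0.02 on the 6 arrays of cytarabine, paclitaxel and cytochalasin D. All 11 values were below 0, and the 5-FU values overlapped only with those of cisplatin. The fitted log2 ratio for 5-FU was -0.88 ± 0.10 (1.84-fold lower, adjusted p = 0.000707), and -0.72 without the channel term, and it was called in all 9 fits without a replicate that could be estimated. For cisplatin the fit gave -0.58 ± 0.12 (adjusted p = 0.0212), larger than either array, because the channel effect of CASP4 rests on the gap between the forward and reversed arrays of 5-FU replicate 1. Without that term cisplatin gave -0.25 (adjusted p = 0.019), and the call with the term ended when either cisplatin replicate was left out. 5-FU minus cytarabine was -0.49 ± 0.14 (adjusted p = 0.0395), but -0.23 without 5-FU replicate 2, and this call was lost in 9 of 10 fits that left out a replicate. The differences of 5-FU from paclitaxel (-0.46, adjusted p = 0.067), from cytochalasin D (-0.50, adjusted p = 0.0522) and of cisplatin from 5-FU (0.30, adjusted p = 0.202) were not called with the channel term. Without it all 4 CASP4 differences were called: -0.66 for 5-FU minus cytarabine (adjusted p = 0.00122), -0.62 for 5-FU minus paclitaxel (adjusted p = 0.00214), -0.67 for 5-FU minus cytochalasin D (adjusted p = 0.00159) and 0.46 for cisplatin minus 5-FU (adjusted p = 0.00672).

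CASP5 had no value on the 5-FU arrays and was low on all 8 others. The arrays gave log2 ratios of -1.08 and -1.12 on the cytarabine arrays, -0.86 and -0.80 on the cisplatin arrays, -0.88 and -0.82 on the paclitaxel arrays, and -0.60 and -0.66 on the cytochalasin D arrays. Replicates lay close together, and the cytarabine values were the lowest and the cytochalasin D values the least low. The fit without the channel term gave -1.10 (adjusted p = 6.86e-05), -0.83 (adjusted p = 0.000454), -0.85 (adjusted p = 0.000444) and -0.63 (adjusted p = 0.00125), in that order of drugs, and these calls held with every replicate left out in turn. For CASP5, as for TNFRSF9, a response common to the 4 drugs and a channel effect cannot be told apart. The difference between drugs of this 1 layout does not involve the channel: cytarabine minus cytochalasin D was -0.47 ± 0.08 (adjusted p = 0.0468), but -0.22 with an adjusted p of 0.28 when arrays were scaled to the same spread, and the call was lost in 8 of 10 fits that left out a replicate. The F test of CASP5 among the 4 drugs gave an adjusted p of 0.0544. CASP1, which cleaves the interleukin-1 beta precursor, was called in no drug, with ratios from -0.57 to 0.47.

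CASP8 also lacked 5-FU values. It read 0.81 and 0.56 on the cisplatin arrays, against -0.24 and -0.69 on the cytarabine arrays, -0.19 and -0.63 on the paclitaxel arrays, and 0.21 and -0.41 on the cytochalasin D arrays. The cisplatin arrays were above all others without overlap. Cisplatin minus cytarabine was 1.15 ± 0.26 (2.22-fold, adjusted p = 0.028), a call that ended when arrays were scaled to the same spread (1.09, adjusted p = 0.0572) and without cytarabine replicate 2 or either cisplatin replicate (adjusted p up to 0.133). Cisplatin minus paclitaxel (1.09, adjusted p = 0.0748) and cisplatin minus cytochalasin D (0.78, adjusted p = 0.158) were not called, nor was the F test (adjusted p = 0.0778). Against untreated RNA, cisplatin missed the threshold in the fit without the channel term (adjusted p = 0.0554).

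The other initiator caspases and their platforms did not pass the test with the channel term. APAF1, the scaffold of the apoptosome and a p53 target, read 0.52 and 0.33 on the cisplatin arrays, with a fitted 0.56 ± 0.16 (adjusted p = 0.059). CASP9, which APAF1 activates, had the narrowest range of the caspases fitted for all 5 drugs, from -0.10 to 0.05. CASP10, a relative of CASP8, had 0.64 and 0.30 on the cytarabine arrays (fitted 0.39 ± 0.14, adjusted p = 0.0818), and it passed without the channel term (adjusted p = 0.0166). CASP2 was below 0 on all 7 arrays of the other 4 drugs that measured it, from -0.72 to -0.06, and between -0.08 and 0.04 on the 5-FU arrays. CFLAR, the inhibitor of CASP8 at death receptors, was between 0.01 and 0.21 on all 8 arrays of those drugs. Neither gene was called, CASP2 with the channel term and CFLAR without it (adjusted p from 0.0716 to 0.76).

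In the BCL2 family, BCL2, the founding inhibitor of mitochondrial death, was low wherever it was measured. Its log2 ratio was -0.86 on the 1 cytarabine array with a value, -0.73 and -0.44 on the cisplatin arrays, -0.79 and -0.76 on the paclitaxel arrays, and -0.53 and -0.75 on the cytochalasin D arrays. All 7 values were below 0. The cytarabine array was the lowest, the paclitaxel arrays lay below those of cisplatin and cytochalasin D, and cisplatin and cytochalasin D overlapped. Neither cisplatin minus paclitaxel (adjusted p = 0.494) nor paclitaxel minus cytochalasin D (adjusted p = 0.834) was called for BCL2. Differences from cytarabine were not tested. BCL2 had no value for 5-FU, so drug and channel effect cannot be told apart here either. Without the channel term BCL2 gave -0.58 for cisplatin (adjusted p = 0.0142), -0.78 for paclitaxel (adjusted p = 0.0077) and -0.64 for cytochalasin D (adjusted p = 0.0144). Of the 10 fits that left out a replicate, only the 2 without a replicate of the drug itself change its ratio. The cisplatin call was lost in 1 of these 2 fits (ratios -0.73 and -0.44). The paclitaxel call (-0.79 and -0.76) and the cytochalasin D call (-0.75 and -0.53) were lost in both.

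BCL2L1, which encodes the inhibitor BCL-XL, read -0.28 and -0.39 on the cisplatin arrays and 0.08, 0.03 and 0.82 on the 3 arrays of 5-FU with a value. The fitted ratios were -0.47 ± 0.22 for cisplatin (adjusted p = 0.189) and 0.37 ± 0.18 for 5-FU (adjusted p = 0.245), and their difference, -0.84, was not called (adjusted p = 0.0558). BCL2A1, another inhibitor, lay between -0.37 and 0.17 and BIK, a BH3-only activator of death, between -0.27 and 0.41, both without 5-FU values. BCL2L11, which encodes the BH3-only protein BIM, was called in no drug (adjusted p from 0.227 to 0.576), but its 2 probes disagreed. One read 1.39 and 0.41 on the forward and -0.15 and -0.28 on the reversed 5-FU arrays, the other -0.41 and -0.55 on the forward and 0.15 and 0.36 on the reversed ones. Fitted alone, the first BCL2L11 probe was called for cisplatin (0.67, adjusted p = 0.044) and cytochalasin D (0.75, adjusted p = 0.04), and the second was called for neither. These fitted values are much larger than the arrays of the first probe, 0.09 and 0.13 for cisplatin and 0.20 and 0.19 for cytochalasin D. The gap comes from the channel effect, which rests on the forward and reversed 5-FU arrays of that probe.

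TRAF1, TRAF3 and TRAF5 are adaptors that link TNF receptors to NF-kB, while TRAF3IP2 and TRAF3IP3 are TRAF-interacting genes that entered the set by symbol. None of these genes was called against untreated RNA with the channel term. Without it TRAF3 was called for cisplatin (-0.86, adjusted p = 0.0296) and TRAF5 for paclitaxel (adjusted p = 0.0307). TRAF3, a brake on noncanonical NF-kB signalling, read -1.11 and -0.62 on the cisplatin arrays and 0.20 and 0.58 on the 2 reversed 5-FU arrays, its only other values. Cisplatin minus 5-FU was -1.25 ± 0.22 (adjusted p = 0.0264), all 4 arrays having treated RNA in channel 1, and the call ended without 5-FU replicate 2 (-1.06) or cisplatin replicate 1 (-1.01, adjusted p = 0.0927). TRAF1, an NF-kB target, spread widely within drugs, with -0.01 and 0.93 on the cytarabine arrays, and TRAF5 read 0.39 and 0.69 on the paclitaxel arrays (fitted 0.35, adjusted p = 0.199). TRAF3IP2 ranged from -0.72 to 0.69, and TRAF3IP3 had values on 4 arrays of 4 different drugs and was not tested.

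Over the 10 pairs of drugs, TNFRSF12A accounted for 6 of the 16 differences that were called and TNFSF14 for 4. In the pairs with 5-FU, 4 of 24 genes were called for cisplatin minus 5-FU (16.7%, background 15.6%), 2 of 20 for 5-FU minus cytarabine (background 19.9%), 1 of 23 for 5-FU minus paclitaxel (background 13.1%) and 2 of 21 for 5-FU minus cytochalasin D (background 12.1%). Cisplatin differed from cytarabine in 3 of 25 genes (background 18.9%), from paclitaxel in 1 of 29 (background 4.43%) and from cytochalasin D in 1 of 28 (background 6.49%). Cytarabine and cytochalasin D differed in 2 of 25 (background 2.27%). The model called none of 25 between cytarabine and paclitaxel, with 3 at an unadjusted p under 0.05 (background 0.0762%), and none of 27 between paclitaxel and cytochalasin D, with 6 at an unadjusted p under 0.05 (background 0.117%). These comparisons share arrays, and the labels do not say whether untreated RNA was shared.

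The forward and reversed 5-FU arrays give a direct view of the channel effect within the set. Of the 21 genes measured in both orientations, 11 had mean ratios of opposite sign, among them CASP1, APAF1, TNFSF8 and TRAF5. The 4 genes called for 5-FU, CASP4, TNFRSF12A, TNFSF14 and TNFRSF11A, had the same sign in both. They were called from these same arrays, so this agreement is not separate support for the calls. CASP4 and TNFSF14 had a value on a single forward array each.

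**Figure D5:**
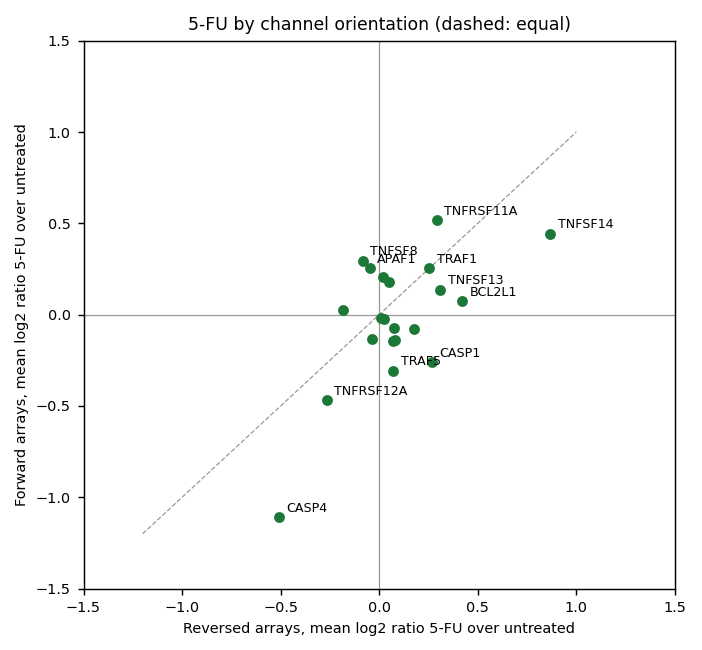
Each point is 1 of the 21 genes with a value in both orientations, with the mean log2 ratio of 5-FU over untreated RNA on the reversed arrays (x axis) and on the forward arrays (y axis), and the dashed line marks equal values. TNFSF14 and TNFRSF11A lie in the upper right and CASP4 and TNFRSF12A in the lower left, while 11 genes have opposite signs in the 2 orientations.

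Other genes of these pathways were read from lists chosen by function. Their counts stand beside a background of 17.1% of all features called for 5-FU, 18.9% for cytarabine, 13% for cisplatin, 5.32% for paclitaxel and 7.97% for cytochalasin D. Of the p53-induced death genes outside the set, 7 of 15 were on the arrays. With 5-FU 4 of 5 tested rose and none fell (median 0.63, against 0.0066 over all features), and with cisplatin 3 of 4 rose (median 0.88, against 0.016 over all features). The sign of all arrays was set by MDM2, itself a p53 target, on the arrays of these 2 drugs. The direction of the listed genes is therefore known only relative to MDM2. FAS, a death receptor and p53 target, rose with both drugs: 0.53, 0.40 and 1.04 on the 5-FU arrays (fitted 0.72 ± 0.16, adjusted p = 0.019) and 1.16 and 1.60 on the cisplatin arrays (fitted 1.31 ± 0.20). EI24 rose with both as well (0.56 for 5-FU and 0.94 for cisplatin), PMAIP1, the BH3-only gene NOXA, with cisplatin (0.82), and TP53I3 and TRIAP1 with 5-FU (0.63 each). None of 4 rose with cytarabine, none of 3 with paclitaxel, and with cytochalasin D 1 of 4 fell (PMAIP1, -0.65), the medians being 0.092, 0.18 and -0.047, against 0.044, 0.024 and 0.020 over all features; without the channel term the cytochalasin D median was 0.058. With the channel term FAS was also the one gene called among the TNF family genes with other symbols. Of these, 5 of 15 were on the arrays and 2 were tested. Their median was 0.53 for 5-FU and 0.67 for cisplatin, the latter -0.057 without the channel term. Without that term CD70 also rose with cisplatin (1.36, adjusted p = 0.000345) and EDA with 5-FU (0.34, adjusted p = 0.0133). CD70 read between -0.26 and 0.34 on the arrays of the other drugs that measured it. In that fit LTB fell with cisplatin (-1.65), paclitaxel (-1.62) and cytochalasin D. It had no value for 5-FU, so drug and channel effect cannot be told apart for LTB.

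Of 31 genes of NF-kB and death receptor signalling, 18 were on the arrays. TNFAIP3 (A20), an NF-kB target and inhibitor, rose with cisplatin (2.38 ± 0.15), 5-FU (0.71) and cytochalasin D (0.77). It was the only one of 16 called for 5-FU (background 17.1%), and 3 of 15 were called for cisplatin (background 13%), where TNIP1 rose (0.33) and IKBKG fell (-0.47). NFKB1 fell with cytarabine (-1.17) and cytochalasin D (-1.22), and with cytarabine MAP3K5 also fell (-0.39) and TNIP1 rose (0.25), in 14 tested (background 18.9%). None of 14 was called for paclitaxel, where NFKB1 was -0.92 (adjusted p = 0.0644). The list's median lay between -0.095 and 0.067 over the 5 drugs, and its highest, for cisplatin, was -0.0021 without the channel term. The TNIP1 calls ended without the channel term (0.15 for cisplatin and 0.066 for cytarabine). In that fit NFKB1 was also called for paclitaxel (-1.07, adjusted p = 0.00989). RELA rose and MAPK8 fell with cisplatin, and CYLD rose and TNFAIP3 and MAPK8 fell with cytarabine. With the channel term these RELA, CYLD and TNFAIP3 ratios were not called, and MAPK8 was not tested.

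Of 31 mitochondrial and effector genes outside the set, 15 were on the arrays and 10 or 11 were tested per drug. With 5-FU, BAG1, a BCL2-binding cochaperone, rose (0.79), and PARP1, a caspase substrate, HAX1 and DFFA fell (-0.92, -0.66 and -0.33). With cisplatin, PMAIP1 and BAG1 (0.63) rose and HAX1 fell (-0.28). With cytarabine, DFFA and PEA15 rose (0.66 and 0.61) and BNIP2 fell (-0.39). VDAC1, the mitochondrial outer membrane channel, fell with paclitaxel (-0.54) and cytochalasin D (-0.57), as did PMAIP1 with cytochalasin D. The list's median lay between -0.0049 and 0.12. Without the channel term the calls of DFFA (adjusted p = 0.293 for 5-FU and 0.480 for cytarabine), BNIP2 (adjusted p = 0.194) and, for paclitaxel, VDAC1 (adjusted p = 0.0682) ended. In that fit BAG4, with no value for 5-FU, fell with cytarabine (-1.11), cisplatin (-0.95), paclitaxel (-1.11) and cytochalasin D (-0.70). BCAP31 rose with cytarabine (0.40) and cytochalasin D (0.43) without the channel term. With that term BCAP31 was 0.096 (adjusted p = 0.395) and 0.13 (adjusted p = 0.333), and was called for neither. Its 5-FU arrays read -0.30 and -0.29 forward and 0.30 and 0.31 reversed. BNIP1 and BBC3, not tested with the channel term, rose with cisplatin without it, and BBC3 fell with cytarabine. Of the 11 BCL2 partners in other complexes, 8 were on the arrays and 6 were tested with the channel term. The 14-3-3 genes YWHAZ, YWHAE and YWHAQ fell with 5-FU (-1.80, -0.79 and -0.47), and RTN1 rose with cytarabine (0.36). None was called for the other 3 drugs. Without that term YWHAE fell with cytarabine (-0.26) and cytochalasin D (-0.38), against -0.082 (adjusted p = 0.617) and -0.21 (adjusted p = 0.271) with it. BCLAF1 fell with cytarabine (-1.17), cisplatin (-0.50), paclitaxel (-0.88) and cytochalasin D (-0.67). It had no value for 5-FU, so drug and channel effect cannot be told apart for BCLAF1. This list's median was -0.30 for 5-FU and between -0.18 and -0.076 for the other drugs.

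Of 18 markers of epithelial cells, leukocytes, fibroblasts and endothelium, 11 were on the arrays. CD14 rose with 5-FU (0.55, adjusted p = 0.033) and cisplatin (0.68, adjusted p = 0.0385), and KRT8 fell with cytochalasin D (-0.30, adjusted p = 0.038). CDH5, like CASP5, BCL2 and TNFRSF9, had no test with the channel term. Without it CDH5 gave -1.58 for cytarabine, -1.08 for paclitaxel and -0.93 for cytochalasin D, and -0.50 for cisplatin, which was not called (adjusted p = 0.0598). In that fit VWF, also an endothelial marker, rose with cisplatin and cytochalasin D (0.30 each). With the channel term VWF was 0.044 for cisplatin (adjusted p = 0.843) and 0.039 for cytochalasin D (adjusted p = 0.882). LUM and KRT18 were not tested with that term. Without it LUM rose with cytochalasin D (0.50) and KRT18 fell with cisplatin (-0.49), while the CD14 call for cisplatin ended (adjusted p = 0.0544). The part of such changes in the results of the set was not tested.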

How the data were processed

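Total RNA of H460 cells was compared on 12 two-channel arrays, with drug, dose, time and channel taken per the labels. Log ratios per probe were deposited by the authors and taken as log2. How these were normalized and filtered was not given in the sources used here. Spot intensities were not used, so signal over background is unknown. Precision was limited by the number of arrays and by missing values, and any limit from dim spots could not be seen. Of 8170 probes, 5930 match 1 gene, 79 several and 2161 none. Each array was centred on its median and probes of a gene were averaged, giving 7739 features.

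A linear model per feature had 5 drug ratios and a channel effect. A forward and reversed 5-FU pair formed 1 replicate (their turned mean), and the difference within the pair, divided by 2 and given weight 2, informed the channel effect; a replicate with 1 orientation entered as that array. A feature was tested where both replicates of each drug compared had a value and the contrast could be estimated. Statistics were moderated with limma 3.58.1 in R 4.3.3, p-values were adjusted by Benjamini-Hochberg, and the threshold was 0.05. The ratio is tested against 0, so untreated cultures have no spread of their own. The script was tested on simulated data. Genes without 5-FU values were fitted without the channel term, an alternative chosen after seeing the data. Promoters were searched with Python 3.11.15 and aligned with Biopython 1.88.

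The genes and lists were chosen with earlier results of these data known. Genes named are, per drug, up to 6 called genes with the same sign in both replicates, per pair up to 3 called genes with the largest difference, central genes of the families where measured, those called by the F test, and up to 3 called genes per list. Other genes and probes of the set were named after their values were seen. Alternatives were no channel term, each array as its own observation, arrays scaled to the same spread, features with every value, a replicate block, adjustment over all pairs together, no centring, robust moderation, and fits that omit 1 replicate at a time, in which the remaining sample of that drug was assumed to have the spread of the other drugs.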

Additional observations from a re-analysis of the deposited data

How the results depend on the processing

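No called ratio or difference of a gene of the set changed sign under the alternatives run, while the medians of the p53 list for cytochalasin D (0.058 against -0.047), the NF-kB list for cisplatin (-0.0021 against 0.067), the mitochondrial list for 5-FU (-0.024 against 0.0043) and the TNF family list for cisplatin (-0.057 against 0.67), paclitaxel (-0.016 against 0.047) and cytochalasin D (-0.14 against 0.0097) did without the channel term. Counts of the set's called genes are given here as the alternative's count, then the count reported. Without the channel term they were 3 against 0 for cytarabine, 6 against 2 for cisplatin, 4 against 0 for paclitaxel, 5 against 1 for cytochalasin D, 4 against 2 for 5-FU minus cytarabine, 4 against 1 for 5-FU minus paclitaxel, 1 against 2 for cytarabine minus cytochalasin D and 2 against 1 for the F test. For 5-FU minus cytochalasin D the count stayed at 2 but 0 genes were shared: TNFRSF12A (0.41) and TNFSF14 (0.71) lost their calls, and CASP4 (-0.67) and TNFRSF11A (0.42) gained one. That fit tests more genes, among them CASP5, BCL2 and TNFRSF9, and over all features it called 1719 against 897 for cytarabine, 1129 against 645 for cisplatin, 668 against 258 for paclitaxel and 774 against 390 for cytochalasin D. With only features measured on all 12 arrays, fewer genes were tested, and the counts were 2 against 4 for 5-FU, 0 against 2 for 5-FU minus cytarabine, 1 against 4 for cisplatin minus 5-FU, 0 against 1 for 5-FU minus paclitaxel, 1 against 2 for 5-FU minus cytochalasin D, 1 against 2 for cytarabine minus cytochalasin D, 1 against 0 for paclitaxel minus cytochalasin D and 8 against 16 for the 10 pairs together. With arrays scaled to the same spread they were 2 against 1 for cytochalasin D, 1 against 3 for cisplatin minus cytarabine, 0 against 2 for cytarabine minus cytochalasin D and 2 against 1 for cisplatin minus cytochalasin D. With every array as its own observation they were 1 against 2 for 5-FU minus cytarabine and for 5-FU minus cytochalasin D, and 0 against 2 for cytarabine minus cytochalasin D. Adjusting over the 10 pairs together gave 1 against 2 for those same 5-FU differences and 2 against 0 for paclitaxel minus cytochalasin D, where TNFRSF12A then passed. The cause of the changes under scaling, single arrays and joint adjustment was not tested. Omitting the centring and robust moderation kept each count within 1.5 times.

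Replicate numbers of different drugs did not pair the arrays: the replicate differences correlated between -0.0611 and 0.0904, with 0 of 10 pairs of drugs over 0.1. With the number as a replicate block the counts were 1 against 2 for 5-FU minus cytarabine, 0 against 2 for cytarabine minus cytochalasin D, 2 against 1 for cisplatin minus paclitaxel, for cisplatin minus cytochalasin D and for the F test.

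Leaving out 1 replicate gave 1 to 4 called genes for 5-FU, 0 to 1 for cytarabine, 1 to 3 for cisplatin, 0 to 1 for paclitaxel and 1 to 3 for cytochalasin D. It gave 1 to 2 for 5-FU minus cytarabine, 1 to 4 for cisplatin minus 5-FU, 0 to 3 for 5-FU minus paclitaxel, 0 to 2 for 5-FU minus cytochalasin D, 1 to 4 for cisplatin minus cytarabine, 0 to 1 for cytarabine minus cytochalasin D, 0 to 2 for cisplatin minus paclitaxel, 1 in every case for cisplatin minus cytochalasin D, 0 in every case for cytarabine minus paclitaxel, 0 to 1 for paclitaxel minus cytochalasin D, 1 to 2 for the F test and 6 to 18 for the 10 pairs together. The TNFRSF12A calls for cisplatin, cytochalasin D, cisplatin minus 5-FU, cisplatin minus cytarabine, cisplatin minus cytochalasin D and the F test held in each fit run, as did the 5-FU calls of CASP4 and TNFSF14. Ratios carry no signal level, so which probes were too dim to read is unknown.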
